A study of Drosophila melanogaster with 12 samples.

Results

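The 40 genes described here encode 35 precursors of neuropeptides and peptide hormones and 5 proteins that turn precursors into active peptides, out of 13771 genes quantified in Drosophila melanogaster larvae of the third instar (L3). They were listed by gene name for what they encode, with earlier results of these data known, and all 40 names were found. RNA was sequenced from clamp null females, control females, clamp null males and control males, with 3 libraries in each group. Clamp null larvae were yw; clamp2, a line that carries a recessive null allele of the gene for CLAMP, a zinc finger protein that binds GA-rich DNA and recruits the dosage compensation complex to the male X chromosome, and control larvae were yw. The labels state that RNA came from 3 whole larvae for each library, and nothing more is said of separate cultures, so the p-values measure the spread between these libraries. As background from the study's text, clamp2 null larvae do not pupate and the males die before late L3, so the delay of development and the genotype cannot be told apart.

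A neuropeptide is made as a longer precursor that enters the secretory pathway. There the prohormone convertase amon, which needs the chaperone 7B2, cuts at basic residues, the carboxypeptidase svr trims the cut ends, and Phm and Pal2 act in sequence to turn a terminal glycine into an amide. The peptides leave neurons, gut endocrine cells and glands such as the Inka cells from dense core vesicles and act mostly on G protein-coupled receptors. In larvae they steer feeding, water balance, gut movement, the use of energy stores and the moults.

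Levels are TPM, transcript abundances that are scaled for transcript length and sum to 1000000 in each library, so a change in a few very abundant genes shifts all others. Clamp itself had 19.4, 16.2 and 20.0 TPM in clamp null females, against 39.4, 45.1 and 36.3 TPM in control females, and 22.8, 21.4 and 21.9 TPM in clamp null males, against 59.2, 58.5 and 43.4 TPM in control males. The glue protein genes of late L3 (6 Sgs genes) took 0.00103% to 0.354% of the TPM in clamp null libraries and 8.01% to 15.3% in controls. Of 12 listed markers of late L3, these 6 among them, 7 passed as lower and 1 as higher in clamp null females. In clamp null males 9 passed as lower and 2 as higher. The summed TPM of 15 testis markers was 9.01, 14.5 and 290.3 in the clamp null male libraries numbered 4, 5 and 6, against 1343 to 2170 in control males, and clamp null and control females had 5.43 to 11.6 and 15.6 to 30.1. Libraries 4 and 5 of that group thus lay at the female level for these testis markers. Whether little testis tissue, a wrong sex title or something else lies behind this was not tested, and results in males are also given without these libraries. The summed TPM of 12 neuron markers was 27.0 to 50.9 in clamp null females, against 49.6 to 98.5 in control females, and 30.6 to 55.6 in clamp null males, against 48.2 to 74.9 in control males. Of the 8 neuron markers tested, 1 was lower in clamp null females (VGlut) and 1 in clamp null males (brp), elav did not pass in either sex, and the part of neuron content in the results below was not tested.

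Testing needed a mean of 1 TPM or more over the 12 libraries, which kept 37 of the 40 members and 11145 genes in all. The 3 members below this level were Eh, Pburs and Nplp3. Precursors were often listed at 0: of the 35, 6, 11 and 5 were at 0 in clamp null females 4, 5 and 6, and 3 to 4 in each control female library. In males the numbers were 1, 5 and 2 in clamp null libraries and 1 to 3 in control libraries. Of 88 ribosomal protein genes, 81 were above 0 in every library. The other 7, RpS10a, RpS19b, RpS28a, RpS28-like, RpL10Aa, RpL22-like and RpL37-2, are copies of other ribosomal protein genes, and they had 2.66 to 116 TPM in clamp null male 6 and the control males. From 3 to 7 of them were at 0 in each remaining library. Clamp null male 6 and the control males also had the highest sums of testis markers. These 7 genes thus cannot show whether a listed 0 missed a transcript that was present. Read counts were not used here, so a listed 0 was taken as a value of the estimate and not as proof that a transcript was absent.

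**Figure D1:**
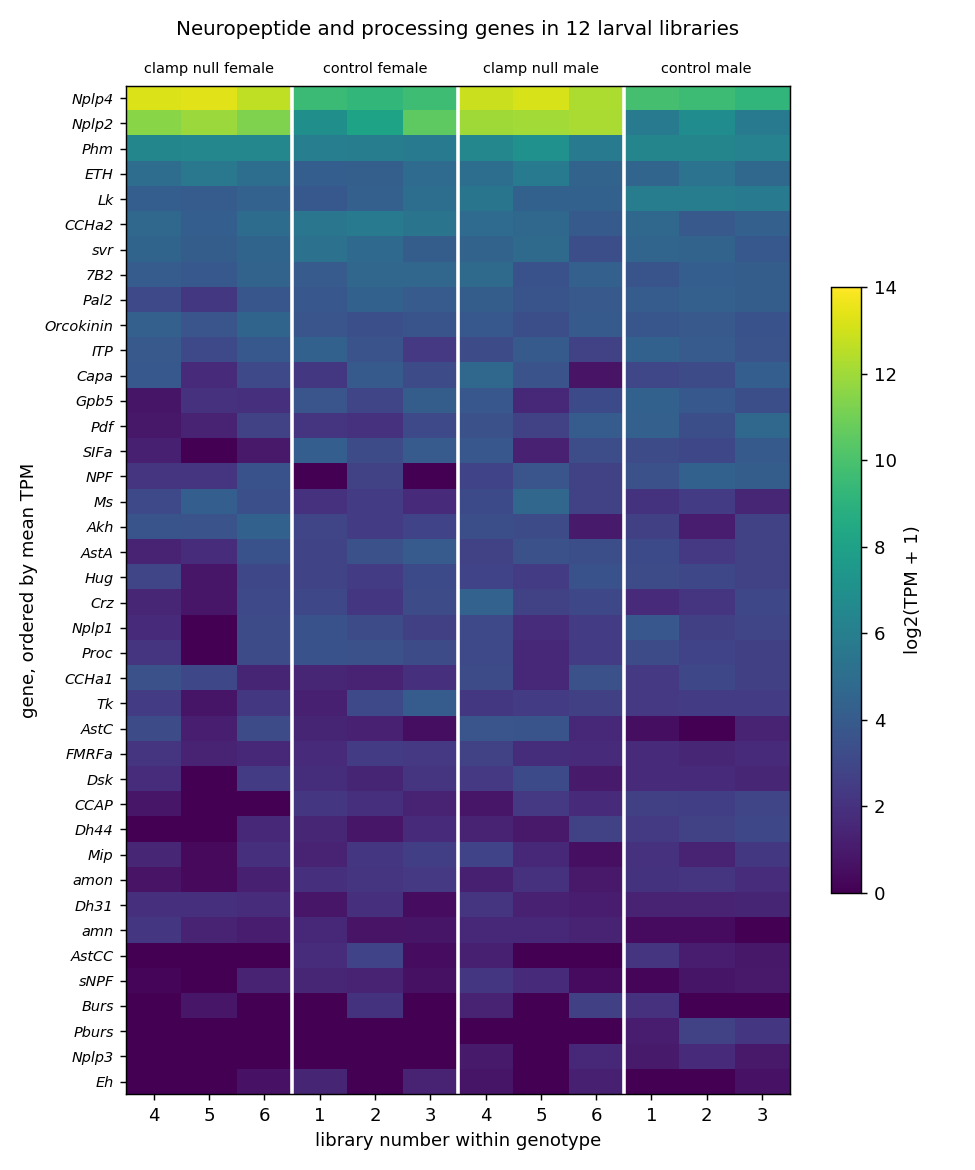
Level of all 40 genes in each of the 12 libraries, as the colour of log2(TPM + 1), with genes in rows ordered by mean TPM and libraries in columns by group. Nplp4 and Nplp2 stand far above the other rows in clamp null libraries of both sexes, and most precursors lie at low levels in every group.

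Among the 35 listed precursors, Nplp4 and Nplp2 held most of the TPM in these whole larvae. Which tissues made these transcripts was not tested. Nplp4 averaged 4430 TPM and Nplp2 2051 TPM over the 12 libraries, and the next members by mean level were Phm (79.0 TPM), ETH (30.8 TPM) and Lk (30.6 TPM). Every other member averaged 28.1 TPM or less. Of the summed TPM of the 35 listed precursors, Nplp2 and Nplp4 made up 97.4% to 98.9% in the 6 clamp null libraries and 69.9% to 90.0% in the 6 control libraries. Lst, a peptide gene outside this list, had 104 to 277 TPM over the 12 libraries and is not in these sums. The other 33 precursors summed to 158 to 313 TPM in clamp null libraries and 219 to 284 TPM in control libraries, so the ranges overlapped. The 5 processing genes summed to 96.8 to 185 TPM in clamp null libraries and 111 to 140 TPM in control libraries, again with overlap.

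In females, the clamp null genotype went with 3 higher and 7 lower members. Nplp4, Nplp2 and Ms rose, while SIFa, Gpb5, CCAP, AstCC, CCHa2, amon and Pal2 fell. These 10 of 37 tested members (27.0%) compare with 25.4% of all genes tested (9.8% higher, 15.6% lower; limma, Benjamini-Hochberg adjusted p under 0.05), a share close to that of all genes. The median log2 fold change of the members was -0.40, against -0.20 for all genes tested. Without clamp null female 5 it was -0.21, against -0.13 for all genes, and 3 members passed as higher and 2 as lower. TPM of the groups did not overlap for 14 members, against 40.7% of all genes, and the 4 of these members that did not pass the test were Akh, ETH, Orcokinin and Phm.

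In males, 5 members rose (Nplp2, Nplp4, Ms, AstC and amn) and 2 fell (CCAP and Lk). The 7 of 37 (18.9%) compare with 57.1% of all genes tested, of which 11.3% were higher and 45.8% lower. The members' median log2 fold change was 0.08, against -0.75 for all genes tested. It turned to -0.06 without clamp null male 4 and to -0.25 without libraries 4 and 5 together, and over all libraries left out 1 at a time it ran up to 0.19, without clamp null male 6. Groups did not overlap for 7 members, against 63.6% of all genes. With the libraries titled clamp null male 4 and 5 left out, a single clamp null male library remained, which the fit assumes to vary like the other groups, and 5 members passed: Nplp4 and Nplp2 were higher and Lk, Capa and amon lower. These are 13.5% of the members, against 40.6% of all genes tested in the same fit. The members that passed with the same sign in both sexes were 4 (Nplp4, Nplp2, Ms and CCAP), against 20.1% of all genes tested.

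The direction of these counts depended on the scaling of TPM. In an alternative, each library was scaled by the median of its ratios to a reference, taken over genes above 0 in all 12 libraries. The median change of all genes then moved to -0.02 in females and -0.24 in males. Under that scaling, 5 members rose and 4 fell in clamp null females, and 7 rose and 0 fell in clamp null males, of 37 tested. Over the 11145 genes tested, 1498 rose and 1241 fell in females, and 2026 rose and 3231 fell in males. Changes below are given on the scale of TPM as deposited, as log2 of TPM + 1, which understates the change of genes at low levels, and calls that the other scaling ended are named beside them.

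**Figure D2:**
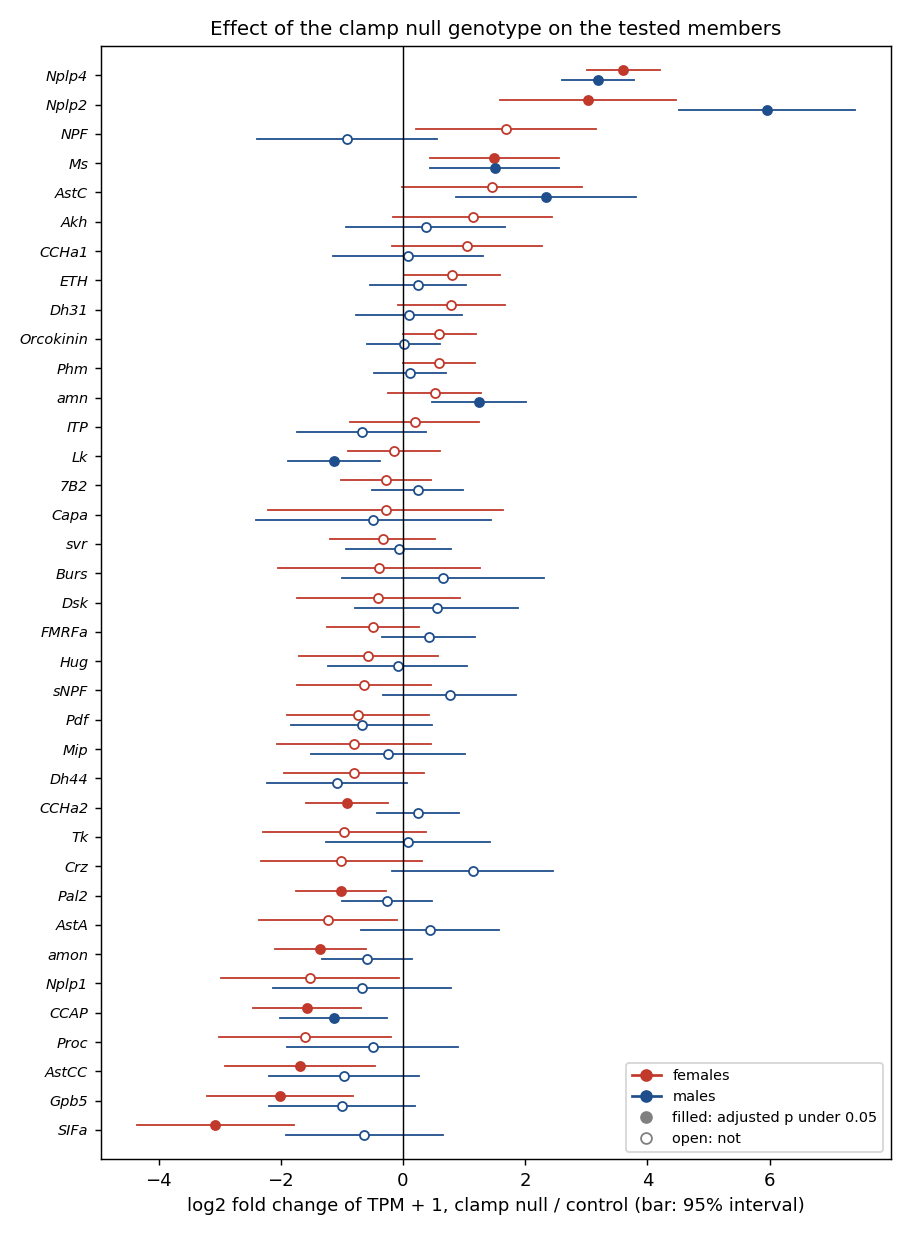
Log2 fold change of TPM + 1, clamp null over control, for the 37 tested genes in females (red) and males (blue), with 95% intervals from limma. Filled points passed an adjusted p of 0.05, 10 in females and 7 in males, and the points of Nplp4 and Nplp2 lie to the right in both sexes.

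Nplp4 (FBgn0040717, chromosome 2L, 2008414 to 2009072 in Ensembl BDGP6.54) and Nplp2 (FBgn0287423, chromosome 3L, 13356376 to 13357223) are neuropeptide-like precursors, a group of unrelated proteins first named from peptides sequenced from the larval nervous system. The name does not tell which tissues of these whole larvae made the transcripts, and that was not tested. Nplp4 had 9888, 10734 and 6594 TPM in clamp null females, against 757, 627 and 815 TPM in control females. In males it had 7406, 9069 and 4957 TPM in clamp null larvae, against 942, 770 and 597 TPM in controls. Every clamp null library thus lay far above every control library. The log2 fold change was 3.60 in females (standard error 0.27, limma adjusted p = 1.06e-05) and 3.19 in males (standard error 0.27, adjusted p = 6.72e-06), and mean TPM was 12.4-fold and 9.28-fold higher. The difference between the 2 changes, males minus females, was -0.41 on the log2 scale (95% interval -1.25 to 0.43) and did not pass. Without the libraries titled clamp null male 4 and 5, the change in males was 2.71 and still passed (adjusted p 9.57e-07 to 7.69e-04 over all alternatives). In bulk larvae, more cells that make a transcript and more transcript per cell cannot be told apart, for Nplp4 as for all other genes here.

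Nplp2 had 2919, 3877 and 2520 TPM in clamp null females, against 125, 281 and 1480 TPM in control females. Clamp null males had 4175, 4296 and 4715 TPM, against 54.8, 112 and 55.3 TPM in control males. The clamp null libraries were again all above the controls, but control female 3 stood at 1480 TPM, far above the other 5 control libraries. Expression rose by 3.03 on the log2 scale in females (standard error 0.66, limma adjusted p = 0.00608) and by 5.95 in males (standard error 0.66, adjusted p = 2.91e-05). The call in females was lost when only the 6 female libraries entered the fit, and over all alternatives its adjusted p ran from 1.07e-04 to 0.0850. The male change passed under every alternative tried (adjusted p 2.64e-06 to 0.00202) and stood at 6.06 without the libraries titled clamp null male 4 and 5.

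Nplp2 was also the member with the widest gap between the effects in the sexes. The difference in the effect of genotype, males minus females, was 2.93 on the log2 scale (95% interval 0.89 to 4.96) and did not pass (limma adjusted p = 0.0569). It passed at 1.94 without control female 3 and at 3.71 without control female 1. The other members named Nplp stayed low. Nplp1, which encodes several amidated peptides, had 0 to 8.27 TPM in clamp null females, against 5.23 to 10.6 TPM in control females, and did not pass in either sex (-1.52 in females, adjusted p = 0.117, and -0.67 in males, adjusted p = 0.405), but did in females without clamp null female 6 (-2.31). Nplp3 was listed at 0 in all 6 female libraries and had 1.04, 0 and 2.08 TPM in clamp null males, against 1.05, 2.31 and 0.920 TPM in control males.

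Ms encodes myosuppressin, an amidated peptide that slows the contraction of heart and gut muscle. It had 7.47, 17 and 9.80 TPM in clamp null females, against 3.00, 4.65 and 2.25 TPM in control females. Clamp null males had 7.88, 23.8 and 5.55 TPM, against 3.13, 4.44 and 1.83 TPM in control males. The groups did not overlap in either sex, and library 5 was the highest of both clamp null groups. The log2 fold change was 1.50 in females (standard error 0.49, limma adjusted p = 0.0409) and 1.50 in males (standard error 0.49, adjusted p = 0.0199). The male change without the libraries titled clamp null male 4 and 5 was 0.71 and did not pass. Over all alternatives the adjusted p ran from 0.0123 to 0.151 in females, where the call was lost with no filter, in a fit of the female libraries alone and without clamp null female 5 or 6 or any 1 control library. In males it ran from 0.00526 to 0.288, and the call was also lost in a fit of the male libraries alone and without clamp null male 5 or control male 3.

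AstC encodes allatostatin C, a relative of somatostatin made in brain and gut endocrine cells. Its TPM was 12, 11.6 and 1.90 in clamp null males, against 0.408, 0 and 1.62 in control males, which placed clamp null male 6 close to the highest control. In females it was 8.47, 1.30 and 8.12 in clamp null larvae, against 1.78, 1.44 and 0.413 in controls, and here the groups overlapped. AstC rose in males by 2.34 on the log2 scale (standard error 0.68, limma adjusted p = 0.0113), while the female value of 1.46 did not pass (adjusted p = 0.137) but did at 2.13 without clamp null female 5. Without the libraries titled clamp null male 4 and 5 the male value was 0.91 and the call was lost, the only alternative that ended it (adjusted p 0.00164 to 0.382 over all alternatives).

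The neighbouring paralogue AstCC, which encodes a related peptide, ran the other way. It was listed at 0 in all 3 clamp null female libraries, against 2.39, 6.07 and 0.381 TPM in control females. In clamp null males it had 1.37, 0 and 0 TPM, against 3.42, 1.10 and 0.887 TPM in control males. The log2 change of -1.68 in females passed narrowly (standard error 0.56, limma adjusted p = 0.0459) and was lost with the other scaling, in a fit of the female libraries alone and without clamp null female 4, 5 or 6, control female 1 or 2 or control male 2 or 3 (adjusted p 0.0101 to 0.190 over all alternatives). In males the value was -0.96 (adjusted p = 0.161). The sign of AstC and AstCC thus differed, at levels of 12 TPM or less.

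Amnesiac (amn) encodes a precursor related to vertebrate PACAP and is known for its need in memory. It had 1.97, 2.06 and 1.56 TPM in clamp null males, against 0.311, 0.330 and 0 TPM in control males. Clamp null females had 3.58, 1.56 and 1.16 TPM, against 2.0, 0.658 and 0.732 TPM in control females. The male groups were well apart and the female groups overlapped. In males amn rose by 1.25 on the log2 scale (standard error 0.35, limma adjusted p = 0.00992), and in females the value was 0.52 (adjusted p = 0.320). The male change was 1.09 without the libraries titled clamp null male 4 and 5 and no longer passed, again the only alternative that ended the call (adjusted p 0.00514 to 0.0923 over all alternatives). Exons of amn overlap those of Hers on the opposite strand by up to 140 bp.

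SIFa encodes SIFamide, a peptide of a few large brain neurons that is known for roles in feeding and courtship. It had the largest fall of any member in females. The 3 clamp null female libraries had 1.33, 0 and 0.921 TPM, against 17.2, 8.09 and 14.9 TPM in control females. In males the values were 13.1, 1.42 and 8.73 TPM in clamp null larvae, against 8.66, 7.25 and 14.5 TPM in controls. The female groups were far apart, whereas in males only clamp null library 5 was low. The log2 fold change in females was -3.07 (standard error 0.59, limma adjusted p = 0.00316), and the male value of -0.63 did not pass (adjusted p = 0.375). The effect differed between the sexes by 2.44 (95% interval 0.62 to 4.26) and did not pass (adjusted p = 0.0769). The difference passed at 2.93 without the libraries titled clamp null male 4 and 5 and at 3.20 without library 5 alone. The fall in females passed under every alternative tried (adjusted p 4.46e-04 to 0.0174). SIFa shares up to 111 bp of exon with Start1 on the opposite strand, a gene with 5.10 to 7.75 TPM in clamp null females and 20.2 to 21.7 TPM in control females. Start1 was also lower in clamp null males, at 5.89 to 11.9 TPM against 18.1 to 24.7 TPM in control males, where SIFa did not pass. The part of that overlap in the SIFa values was not tested.

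**Figure D3:**
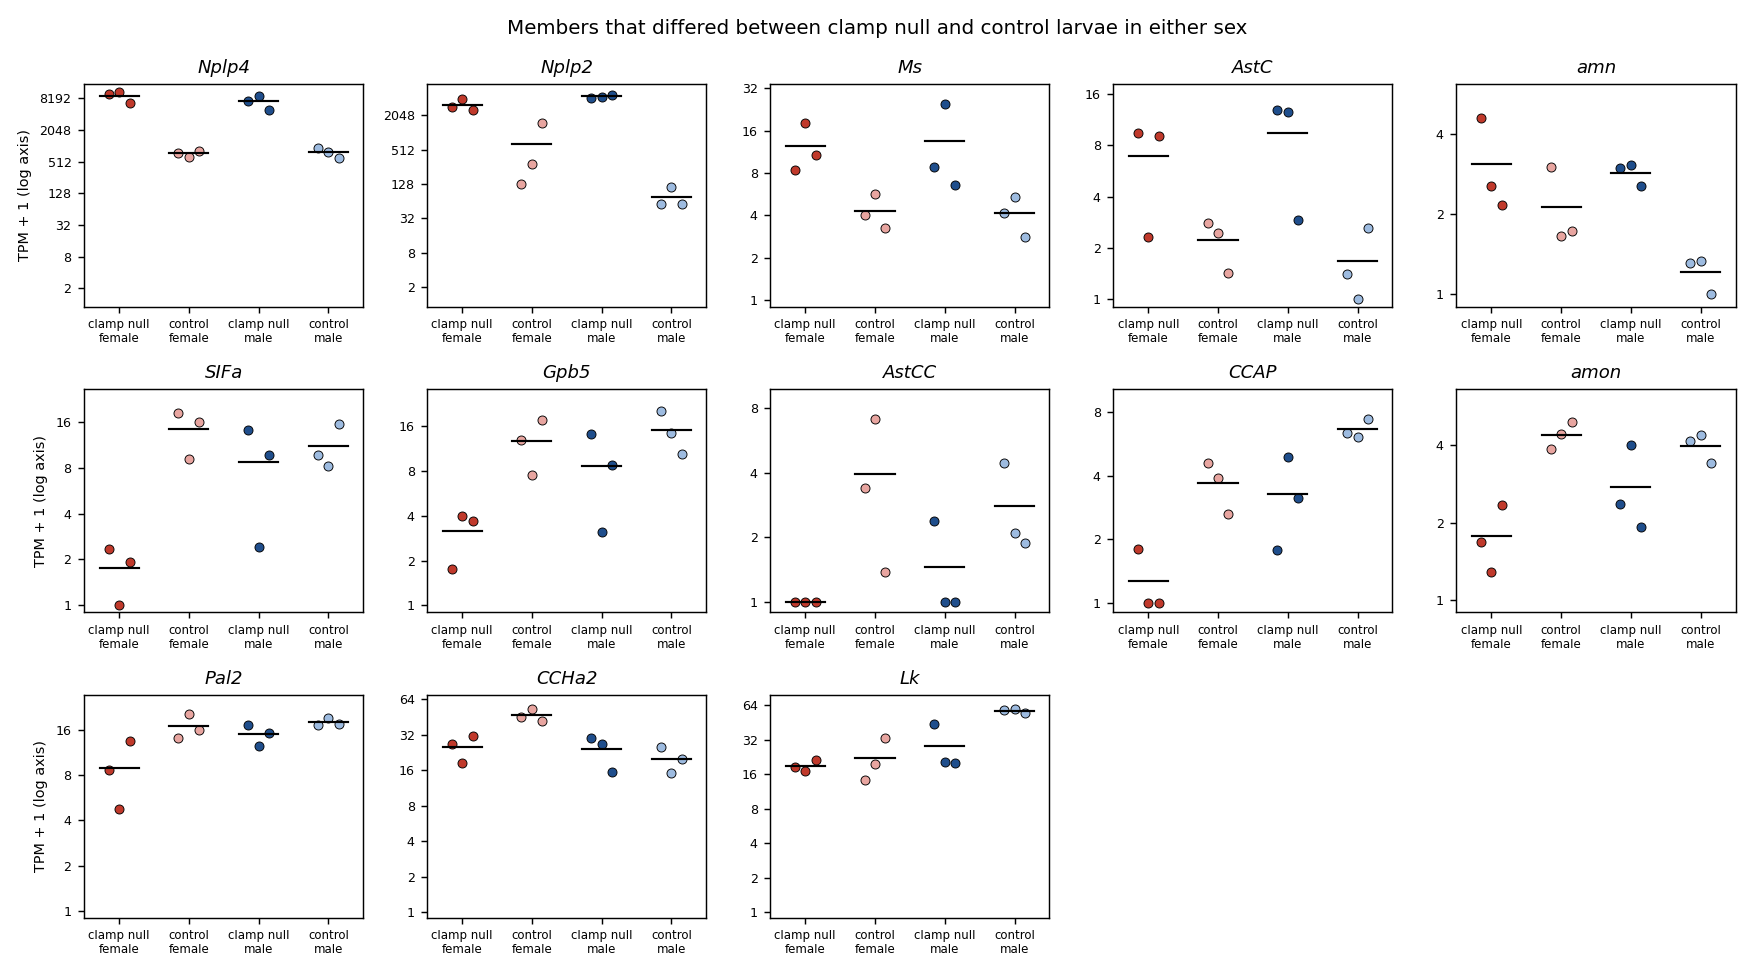
TPM + 1 on a log axis for the 13 members that passed in either genotype comparison, with 1 point for each library, 3 in each group, and a line at the group mean. SIFa in females shows the 3 clamp null points below all control points, and Nplp2 shows control female 3 high among the controls.

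Gpb5 encodes the beta subunit of a glycoprotein hormone that acts on the hindgut. It had 0.762, 3.00 and 2.68 TPM in clamp null females, against 12, 6.52 and 16.6 TPM in control females. In clamp null males it had 13.1, 2.10 and 7.84 TPM, against 19.2, 13.6 and 9.37 TPM in control males. Female groups did not overlap, and in males libraries 5 and 6 lay below the controls. The fall was -2.02 on the log2 scale in females (standard error 0.55, limma adjusted p = 0.0188), 5.45-fold in mean TPM, against a value of -0.99 in males (adjusted p = 0.138). The call was lost without clamp null female 4, control female 1 or control female 3 (adjusted p 0.00566 to 0.0764 over all alternatives).

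CCAP, crustacean cardioactive peptide, is released at ecdysis and drives the motor programme that sheds the old cuticle. It was the only member that passed as lower in both sexes. Clamp null females had 0.798, 0 and 0 TPM, against 3.58, 2.91 and 1.63 TPM in control females, and clamp null males had 0.766, 3.93 and 2.14 TPM, against 5.37, 5.08 and 6.46 TPM in control males. No clamp null library reached the lowest control of its sex. The change was -1.57 in females (standard error 0.40, limma adjusted p = 0.0142) and -1.13 in males (standard error 0.40, adjusted p = 0.0303). The male call was lost with the other scaling (-0.70), with a pseudocount of 0.1 TPM, in a fit of the male libraries alone, without clamp null male 4 or any 1 control male library, and without the libraries titled clamp null male 4 and 5 (-1.07), with an adjusted p of 0.00929 to 0.164 over all alternatives. The female call was lost without clamp null female 5, control female 1 or control female 2 (adjusted p 0.00807 to 0.0552). Exons of CCAP overlap those of CG6972 on the opposite strand by 78 bp. In females CG6972 ran the other way, with 23.4 to 34.4 TPM in clamp null larvae and 3.80 to 9.78 TPM in controls. Its male ranges overlapped, at 20.4 to 37.0 TPM in clamp null larvae and 11.7 to 22.0 TPM in controls.

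Of the other peptide precursors of the ecdysis cascade, ETH and Burs did not pass, and Eh and Pburs were too low to be tested. ETH, ecdysis triggering hormone of the Inka cells, had 31.7, 46.8 and 32.6 TPM in clamp null females, against 17.3, 17.6 and 28.2 TPM in control females. Male libraries had 31.8, 56.6 and 20.7 TPM in clamp null larvae, against 22.7, 38.6 and 25.1 TPM in controls. Its log2 change was 0.80 in females (limma adjusted p = 0.124) and 0.25 in males (adjusted p = 0.572), and no library had under 17.3 TPM. Eh, eclosion hormone, reached 1.69 TPM at most and was listed at 0 in 6 libraries. The bursicon subunits, which act together to harden the new cuticle, were also rare. Burs was listed at 0 in 7 libraries and reached 5.23 TPM, with changes of -0.39 in females and 0.66 in males. Pburs was listed at 0 in 9 libraries and above 0 only in control males, at 1.06, 5.70 and 3.64 TPM.

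Receptors of these and other peptides were counted from a list. From this list of 36 neuropeptide receptors, 15 were tested, with 3 higher and 2 lower in clamp null females, while clamp null males had 4 that rose and 2 that fell. These shares of 33.3% and 40.0% compare with 25.4% and 57.1% of all genes tested. The rickets gene rk, which encodes the bursicon receptor, had 0.137, 0.0666 and 0.254 TPM in clamp null females, against 10.8, 7.53 and 14.4 TPM in control females. In clamp null males it had 0.118, 0.153 and 0 TPM, against 14.6, 11.4 and 12.5 TPM in control males. It was at or near 0 in all 6 clamp null libraries. The log2 fall was -3.33 in females (standard error 0.28, limma adjusted p = 1.78e-05) and -3.66 in males (standard error 0.28, adjusted p = 3.47e-06).

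ETHR, the receptor of ecdysis triggering hormone, had 3.93, 1.19 and 2.14 TPM in clamp null females, against 5.33, 6.91 and 4.54 TPM in control females. Male values were 2.80, 1.81 and 2.11 TPM in clamp null larvae, against 14, 10.3 and 11 TPM in controls. Both pairs of groups were apart, with the wider gap in males. ETHR fell by 1.01 on the log2 scale in females (limma adjusted p = 0.0394, lost with the other scaling, with no filter, in a fit of the female libraries alone and without clamp null female 5 or 6 or any 1 control library, 0.0177 to 0.143 over all alternatives) and by 1.98 in males (adjusted p = 3.37e-04). The difference of -0.97 between the male and the female change did not pass (adjusted p = 0.212).

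AkhR is the receptor of adipokinetic hormone, which releases fat and sugar stores from the fat body. It had 49.0, 32.3 and 37.8 TPM in clamp null females, against 14.2, 15 and 20.5 TPM in control females, and 43.9, 40.5 and 25.1 TPM in clamp null males, against 11.7, 10.7 and 10.6 TPM in control males. Every clamp null library was above every control. The rise was 1.21 in females (standard error 0.26, limma adjusted p = 0.00601) and 1.60 in males (standard error 0.26, adjusted p = 3.33e-04). Its ligand Akh had 11.5, 10.9 and 19.3 TPM in clamp null females, against 6.47, 4.33 and 5.99 TPM in control females, without overlap, but the value of 1.14 did not pass (adjusted p = 0.186). In males Akh had 9.46, 8.20 and 1.05 TPM in clamp null larvae, against 5.38, 1.16 and 5.56 TPM in controls, and the value was 0.37 (adjusted p = 0.606).

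PK1-R, a receptor of pyrokinins, had 2.30, 3.73 and 2.69 TPM in clamp null females, against 0.262, 0 and 0 TPM in control females. Levels were 2.19, 1.13 and 0.424 TPM in clamp null males, against 0.218, 0.472 and 0.366 TPM in control males. It rose in females by 1.84 on the log2 scale (limma adjusted p = 0.00196), and in males the groups overlapped (0.66, adjusted p = 0.101). The pyrokinin gene Hug, the precursor of hugin pyrokinin and a brake on feeding, ranged over 0.791 to 10.6 TPM and did not pass (-0.56 and -0.08 in females and males). The remaining receptors that passed, named here after their values were seen, were SPR, which binds sex peptide and Mip peptides, higher in both sexes (1.57 and 0.98), and Pdfr and Proc-R, higher in males (1.03 and 1.18). SPR had 3.47, 2.92 and 0.667 TPM in clamp null males, against 0.530, 0.425 and 0.747 TPM in control males, so clamp null male 6 lay within the control range. Without the libraries titled clamp null male 4 and 5, the male values of SPR, Pdfr and Proc-R were 0.09, 0.48 and 0.76, and all 3 calls were lost. The male calls were also lost without clamp null male 5 alone, among others, and for SPR without 8 further libraries in turn.

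**Figure D4:**
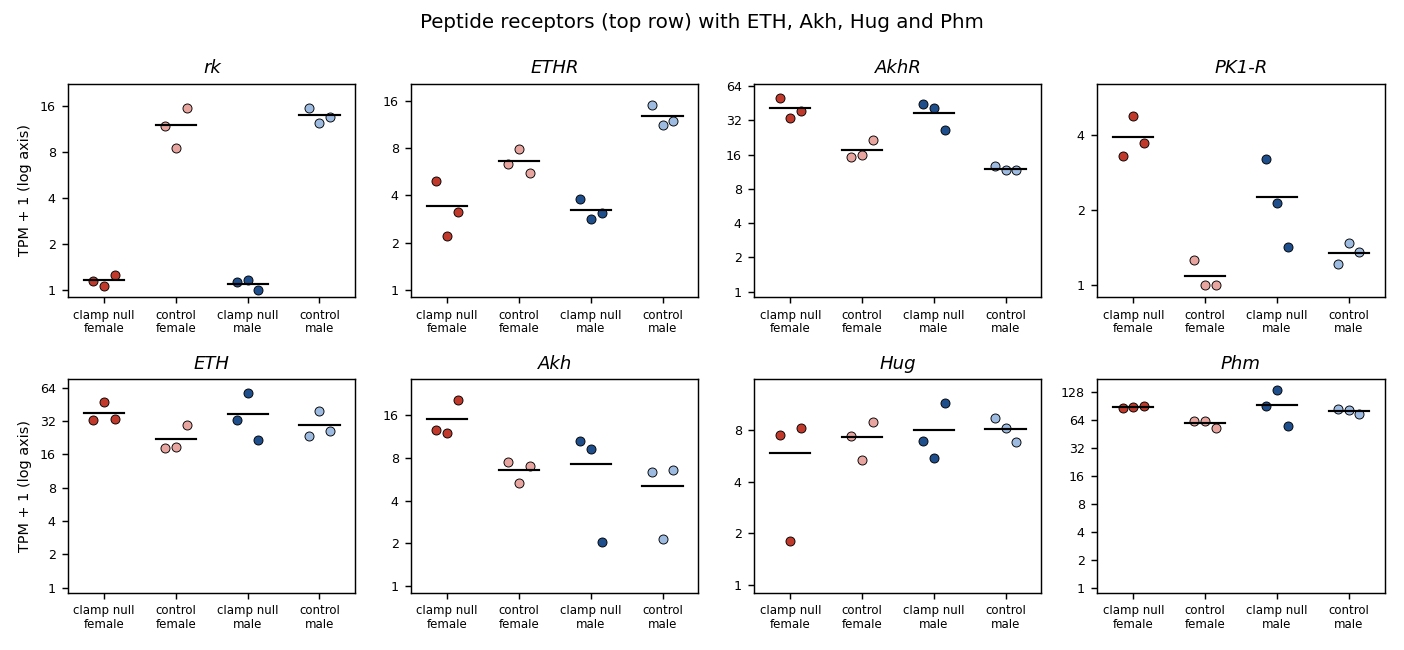
TPM + 1 on a log axis in each library, 3 per group, with a line at the group mean, for the receptor genes rk, ETHR, AkhR and PK1-R (top row) and for ETH, Akh, Hug and Phm (bottom row). All clamp null points of rk lie near 1 on this axis, which is a level of 0 to 0.254 TPM.

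Water balance is under the control of several peptides that act on the Malpighian tubules and hindgut. Lk, leucokinin, a diuretic peptide of the ventral nerve cord and brain, fell in males. It had 42.6, 19.4 and 19.2 TPM in clamp null males, against 57.3, 57.9 and 53.1 TPM in control males. Females had 17.5, 16.0 and 20.4 TPM in clamp null larvae and 13.3, 18.7 and 31.8 TPM in controls. The control males stood above all other libraries, and clamp null male 4, at 42.6 TPM, lay between them and every female library. The log2 change was -1.12 in males (standard error 0.35, limma adjusted p = 0.0154) and -0.15 in females (adjusted p = 0.831). The male call was lost with the other scaling (-0.54) and without clamp null male 5 or 6 (adjusted p 0.00320 to 0.262 over all alternatives). The male change was -1.50 without libraries 4 and 5 together. Lk shares up to 582 bp of exon with asRNA:CR44843 on the opposite strand, a gene without a value in these data. The part of that overlap in the Lk values was not tested.

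The other peptides of water balance did not pass in either sex when all libraries were used. The diuretic hormone genes Dh31 and Dh44 had 0.371 to 3.47 and 0 to 7.22 TPM, with changes in females of 0.79 and -0.80 and in males of 0.10 and -1.08. Dh31 passed in females without control female 2 (1.22), and Dh44 in males without clamp null male 6 (-1.60). ITP, which encodes an antidiuretic ion transport peptide, had 3.99 to 19.6 TPM and changes of 0.19 in females and -0.68 in males. Capa, the precursor of the capa peptides, ranged from 0.645 to 25.1 TPM, and its intervals were the widest of any member (-2.20 to 1.64 in females and -2.41 to 1.44 in males). Without the libraries titled clamp null male 4 and 5, the remaining clamp null male library, at 0.645 TPM, gave Capa a change of -2.76 that passed.

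CCHa2 is made in the fat body and gut of larvae in response to food and stimulates the release of insulin-like peptides. It had 25.5, 17.4 and 30.1 TPM in clamp null females, against 44.6, 51.5 and 41.1 TPM in control females. The values were 29.3, 25.8 and 14.4 TPM in clamp null males, against 24.1, 14.1 and 18.8 TPM in control males. Only the control females stood high. The female change of -0.91 passed narrowly (standard error 0.31, limma adjusted p = 0.0475) and was lost under 13 of 18 alternatives (adjusted p 0.0213 to 0.167). These were the other scaling (-0.65), a pseudocount of 0.1 TPM, no filter, no trend, a fit of the female libraries alone, and leaving out clamp null female 4 or 5 or any 1 control library. The male value was 0.25 (adjusted p = 0.510), and with the other scaling it was 0.81 and passed. The male effect minus the female effect was 1.16 (adjusted p = 0.110), and it passed with the other scaling (1.46) and without clamp null male 6 (1.45).

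The other gut and brain peptides showed no change that passed when all libraries were used. CCHa1, another CCHamide gene of gut and brain, had 1.65 to 10.1 TPM (1.04 and 0.08 in females and males) and passed in females without clamp null female 6 (1.65). Orcokinin, a peptide of gut and nervous system, had 18.3, 11.8 and 21.7 TPM in clamp null females, against 11.8, 9.49 and 11.2 TPM in control females. Those groups did not overlap, the value of 0.59 did not pass (limma adjusted p = 0.134), and it passed with the other scaling (0.84). AstA, allatostatin A of gut endocrine cells and brain, had values of -1.23 in females (adjusted p = 0.102, passing at -1.89 without clamp null female 6) and 0.45 in males (adjusted p = 0.477). Tk, the tachykinin precursor, had 0.753 to 16.0 TPM, with -0.96 in females, which passed at -1.74 without control female 1, and 0.08 in males, and Mip, the myoinhibitory peptide precursor, had 0.283 to 6.04 TPM, with -0.80 and -0.24. Of the gut endocrine markers, tap passed narrowly as lower in clamp null females (-1.22, adjusted p = 0.0487, 0.0300 to 0.20 over the alternatives) and males (-1.15, adjusted p = 0.0311, 0.0171 to 0.101). With the other scaling neither tap call held (-1.16 and -0.87), and both were also lost without any 1 control male library, among others. The marker pros did not pass (-0.92 and -0.88) but did in females without clamp null female 6 (-1.53), and the part of these markers in the values was not tested.

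Peptides of central neurons that did not pass in either sex were led by NPF, a relative of neuropeptide Y that promotes feeding. It had 3.5, 3.44 and 10.5 TPM in clamp null females, against 0, 5.86 and 0 TPM in control females (1.69, limma adjusted p = 0.0878), and it passed at 2.62 without control female 2. In clamp null males it had 6.12, 12 and 5.63 TPM, against 10.3, 19.3 and 16.7 TPM in control males (-0.91, adjusted p = 0.265). Short neuropeptide F (sNPF), another feeding peptide, had 0 to 3.69 TPM with values of -0.64 in females and 0.76 in males, which passed at 1.27 without clamp null male 6. Proc, the muscle stimulant proctolin, had 3.40, 0 and 8.14 TPM in clamp null females, against 10.5, 9.94 and 8.03 TPM in control females (-1.61, adjusted p = 0.0885), and passed at -2.32 without clamp null female 6. Corazonin (Crz), a stress and feeding hormone of the brain, had 0.817 to 19.9 TPM, with -1.01 in females and 1.14 in males. Drosulfakinin (Dsk), a satiety peptide related to cholecystokinin, had 0 to 7.99 TPM with -0.40 and 0.55, and FMRFa, a precursor of FMRFamide-like peptides, had 1.63 to 5.52 TPM with -0.49 and 0.42.

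Among the 5 processing genes, 2 fell in clamp null females and 0 passed in males, against 15.6% of all genes tested that were lower in females and 57.1% that passed in males. The convertase gene amon had 0.681, 0.284 and 1.35 TPM in clamp null females, against 2.86, 3.41 and 3.94 TPM in control females. Values in males were 1.37, 3.01 and 0.923 TPM in clamp null larvae, against 3.16, 3.38 and 2.41 TPM in controls. All clamp null females were below all control females, and clamp null male 5 lay within the control range. The female change was -1.35 (standard error 0.34, limma adjusted p = 0.0129), a 4.40-fold lower mean TPM, and only leaving out clamp null female 5 ended the call (adjusted p 0.00597 to 0.0540 over all alternatives). The male value was -0.59 (adjusted p = 0.156), and it passed without the libraries titled clamp null male 4 and 5 (-1.04).

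Pal2, the lyase of the last step of amidation, had 7.68, 3.78 and 12.5 TPM in clamp null females, against 13.0, 19.4 and 15 TPM in control females. In males the values were 16.3, 11.5 and 14.3 TPM in clamp null larvae, against 16.1, 18.3 and 16.4 TPM in controls. The female groups were close to each other, with 12.5 TPM below 13.0 TPM. The female change of -1.01 passed narrowly (standard error 0.34, limma adjusted p = 0.0459) and was lost with the other scaling (-0.78), with no filter, in a fit of the female libraries alone and without clamp null female 4 or 5, clamp null male 4 or any 1 control library (adjusted p 0.0105 to 0.162 over all alternatives), and the male value was -0.27 (adjusted p = 0.517). Pal2 shares up to 592 bp of exon with CG30183 on the opposite strand. The chaperone gene 7B2 had 10.5 to 27.1 TPM (-0.28 in females, adjusted p = 0.625, and 0.24 in males, adjusted p = 0.560), and the carboxypeptidase gene svr had 9.26 to 37.7 TPM (-0.33, adjusted p = 0.616, and -0.07, adjusted p = 0.886).

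Phm encodes the monooxygenase of the first step of amidation and was the most abundant processing gene. It had 84.8, 87.8 and 89.6 TPM in clamp null females, against 61.3, 61.0 and 51.6 TPM in control females. The clamp null male libraries had 89.4, 132 and 53.4 TPM, against 83.0, 80.4 and 73.5 TPM in control males. The female groups were apart, while in males the clamp null libraries lay on both sides of the controls. The values were 0.59 in females (limma adjusted p = 0.134) and 0.12 in males (adjusted p = 0.717), and both passed with the other scaling (0.85 and 0.71), the female value also in a fit of the female libraries alone and without clamp null male 6. In clamp null females, Phm stood at 1.51 times and Pal2 at 0.504 times the mean TPM of controls.

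The Phm gene has 2 transcripts with the same coding sequence, and these were examined after their values were seen. Phm-RB made up 72.9%, 87.7% and 75.1% of Phm TPM in clamp null females, against 42.7%, 66.9% and 53.6% in control females. In clamp null males it made up 84.5%, 92.8% and 82.7%, against 75.0%, 69.6% and 77.1% in control males. The share was higher in every clamp null library than in every control library of the same sex, and no test was made of it. Phm is among 22 members with 2 or more transcripts, and how many of the others separate in this way was not counted. For TPM of whole genes, clamp null and control groups did not overlap for 40.7% of all genes tested in females and 63.6% in males. Whether the Phm share stands out from that of other genes was thus not tested. Of the 81 transcripts of the 40 members, those of 18 members are single, and the transcripts of 10 members differ in coding sequence.

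**Figure D5:**
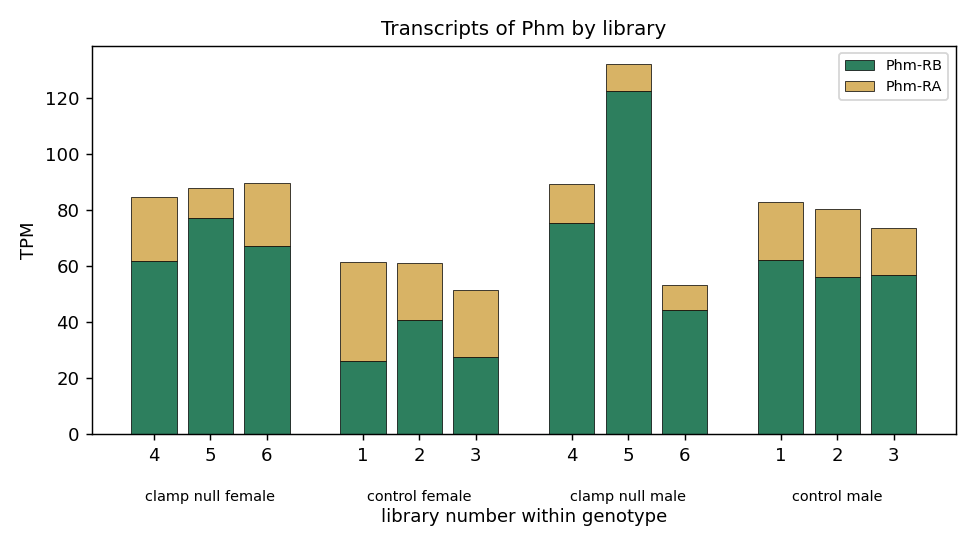
TPM of the 2 Phm transcripts, Phm-RB (green) and Phm-RA (yellow), stacked for each of the 12 libraries, with library numbers on the horizontal axis. Phm-RB is 72.9% to 92.8% of each bar in clamp null libraries and 42.7% to 77.1% in control libraries.

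Control males and control females differed in 5 members, 3 higher and 2 lower in males, against 24.8% of all genes tested (23.2% higher, 1.56% lower). NPF was higher in males by 3.07 on the log2 scale (standard error 0.68, limma adjusted p = 0.00421), with 10.3, 19.3 and 16.7 TPM in control males and 0, 5.86 and 0 TPM in control females. Lk was higher in males by 1.44 (adjusted p = 0.00737), a call that only the other scaling ended (0.00243 to 0.0538 over all alternatives). Pdf, pigment dispersing factor of the clock neurons, had 18.9, 9.11 and 24.6 TPM in control males, against 3.53, 2.99 and 7.54 TPM in control females (1.69, adjusted p = 0.0353), which was lost with the other scaling, with a pseudocount of 0.1 TPM and without control female 1 or 2 or control male 1 or 3 (0.00765 to 0.145 over all alternatives). Lower in control males were CCHa2, by -1.25 (adjusted p = 0.00881), and Nplp2, by -2.40 (adjusted p = 0.0170), with control female 3 at 1480 TPM. The Nplp2 call was lost without control male 1 or 3 and in a fit of the control libraries alone (adjusted p 0.00133 to 0.0861 over all alternatives). Male and female groups did not overlap for 11 members, against 44.0% of all genes. These differences use the same control libraries as the genotype comparisons, so the male value of Lk and the female value of CCHa2 there are not separate evidence.

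Clamp null males and clamp null females differed in 0 of 37 members (limma), and in 2 of 11145 genes (0.0179%). At an unadjusted p under 0.05 there were 7 members (18.9%), against 5.58% of all genes tested, and groups did not overlap for 4 members (Akh, Nplp2, Pdf and SIFa), against 6.88% of all genes. Pdf had 9.95, 5.88 and 15.7 TPM in clamp null males, against 0.873, 1.67 and 5.67 TPM in clamp null females (1.75, adjusted p = 0.787), beside a log2 difference of 1.69 in controls. In the genotype comparison Pdf had values of -0.74 in females and -0.68 in males, and neither passed. With the libraries titled clamp null male 4 and 5 left out, 1 clamp null male library remained. Against clamp null females, that library had log2 differences of 2.56 for SIFa, 2.17 for Dh44 and -2.82 for Akh. These were picked from the 37 members by their values, in a fit with 1 library in that group.

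The effect of genotype differed between the sexes for 0 of 37 members, against 14.7% of all genes tested (limma), and 6 members (16.2%) had an unadjusted p under 0.05, against 25.3% of all genes tested. These 6 were Nplp2, SIFa, NPF (-2.60, adjusted p = 0.102), CCHa2, Crz (2.15, adjusted p = 0.132) and AstA (1.68, adjusted p = 0.175). The difference passed for NPF without control female 2 (-3.52) and for sNPF without clamp null male 6 (1.91). It also passed for Crz (2.79) and AstA (2.33) without clamp null female 6. For Phm it was -1.14 without the libraries titled clamp null male 4 and 5, with 1 clamp null male library left. Members that passed in 1 sex alone, such as SIFa, Gpb5 and amon in females or AstC, amn and Lk in males, were thus not shown to differ between the sexes.

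Genes that act with these peptides were counted from lists, beside shares of 25.4% in females and 57.1% in males over all genes tested. Of 8 further peptide genes, 7 were tested and 1 passed, Ptth, the prothoracicotropic hormone that drives ecdysone synthesis. It had 0, 0 and 0.387 TPM in clamp null males, against 12.3, 2.59 and 11.5 TPM in control males (-2.92, standard error 0.54, limma adjusted p = 7.90e-04). Of 9 genes of vesicle release and other processing, 6 were tested, 0 passed in females and 1 was lower in males, Cadps, which primes dense core vesicles for release (-1.04, adjusted p = 0.0357, lost with the other scaling, with a pseudocount of 0.1 TPM, without clamp null male 5 or any 1 control male library and without clamp null male 4 and 5 together, 0.0202 to 0.211 over all alternatives). Of 6 genes that break peptides down, 5 were tested, and 1 rose and 1 fell in clamp null females while 1 rose and 2 fell in clamp null males. The neprilysins Nep2 and Nep4 fell in males (-1.94 and -2.08, adjusted p = 5.48e-04 and 0.00111), Nep3 fell in females (-1.39, adjusted p = 0.0159), and Nep1 rose in both (0.92 and 0.74, adjusted p = 0.0395 and 0.0491). The Nep3 call was lost without clamp null female 5 or control female 2 and in a fit of the female libraries alone, and both Nep1 calls, among others, without any 1 control female library.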

How the data were processed

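Poly(A) RNA of 12 libraries was sequenced by the authors, who quantified transcripts against the FlyBase 6.29 annotation (dm6) with Salmon, in a version not given in the sources used here, and deposited TPM per transcript, unfiltered. Reads or counts were not used here, so depth and counting error are unknown. The submitters' processing notes also name FastQC, Trim Galore, cutadapt and Bowtie2. Groups were taken from the sample titles, since the sex field of the labels gives 1 sex to each genotype and conflicts with the titles.

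Transcripts were assigned to genes by identifier with Ensembl release 115 (BDGP6.54), which held 29926 of 29936, and TPM were summed per gene. Log2(TPM + 1) of genes that averaged 1 TPM or more was fitted with limma 3.58.1 in R 4.3.3 (trended variance, 4 groups, all 12 libraries). P-values were Benjamini-Hochberg adjusted over 11145 genes in each of 5 comparisons, with a threshold of 0.05. An exact permutation test of 3 against 3 libraries cannot go below 0.1 and was not used. Tables and plots were made with pandas 2.3.3, numpy 2.4.6 and matplotlib 3.10.9 under Python 3.11.15. The fit was tested on simulated data.

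Alternatives were a pseudocount of 0.1 TPM, no filter or a filter at 3 TPM, median-of-ratios scaling, no trend, only the libraries of a comparison, each library left out, libraries titled clamp null male 4 and 5 left out together, and the library number as a block. Members and lists were chosen with earlier results of these data known. Every member was named, with all values for those that passed by genotype and the 5 with the highest mean, and up to 4 genes from each other list by smallest adjusted p. Exons of 9 members overlap another gene, always on the opposite strand, and whether quantification used strand is not given in the sources used here.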

Additional observations from a re-analysis of the deposited data

Results flagged for a closer look

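The effect of genotype on Ptth, a further peptide gene outside the 40, differed between the sexes by -2.82 on the log2 scale (standard error 0.77, limma adjusted p = 0.0267), the interaction test being what drew attention to it. Clamp null females had 0, 0.654 and 1.5 TPM, against 0.878, 0 and 1.68 TPM in control females, while the 3 control males, at 2.59 to 12.3 TPM, stood above all other libraries. Over the alternatives tried, the adjusted p ran from 0.00652 to 0.129. It was lost with a pseudocount of 0.1 TPM and with median-of-ratios scaling (-2.57), without clamp null female 5 or 6, control female 2, clamp null male 4 or 5 or control male 1 or 3, and without clamp null male 4 and 5 together. Groups of 3 libraries were not tested for libraries that stand apart.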

How the results depend on the processing

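Of 45 named results that passed, 18 kept direction and call under every alternative that gave a value, 27 lost the call under at least 1, and 0 reversed; of 184 that did not pass, 38 passed under at least 1. Kept under all that gave a value were Nplp4 in both sexes, Nplp2 in males, SIFa in females, CCHa2 and NPF between control sexes, rk and AkhR in both sexes, ETHR, Ptth, Nep2 and Nep4 in males, PK1-R, SPR and VGlut in females and brp in males. A filter at 3 TPM removes AstCC, CCAP, amon, amn, PK1-R, Ptth, Cadps, SPR, Pdfr, Proc-R, tap, VGlut and brp among those that passed. Member counts moved to 6 in females with only the female libraries, to 3 between control sexes with median-of-ratios scaling, to 3 between clamp null sexes without the libraries titled clamp null male 4 and 5, and for the interaction to 1 with no filter (Pburs), 1 with scaling (CCHa2), 1 with the replicate block (SIFa) and 2 without male libraries 4 and 5 (SIFa and Phm). Over all genes, calls between clamp null sexes were 2 and became 4 with a pseudocount of 0.1, 1 with no filter, 1 with only the clamp null libraries and 1737 without male libraries 4 and 5, and interaction calls were 1639 and became 416 with a pseudocount of 0.1. Leaving out 1 library at a time gave 5 to 12 members in females (5 without clamp null female 5 or control female 1), 5 to 8 in males, 3 to 6 between control sexes (3 without control male 1 or 3), 0 to 0 between clamp null sexes and 0 to 2 for the interaction (2 without clamp null female 6 or clamp null male 6). Over all genes it gave 1719 to 3360 (1719 without control female 2), 5361 to 6426, 2266 to 3001, 1 to 3 and 1249 to 2106 calls for the same comparisons. With scaling, all genes called were 1498 higher and 1241 lower in females, against 1092 and 1742 as deposited, 2026 and 3231 in males, against 1263 and 5103, and 2065 and 393 between control sexes, against 2587 and 174. The replicate block could be fitted only for the sex comparisons and the interaction; same-numbered male and female libraries deviated from their group means with a correlation across genes of 0.264, -0.061 and 0.146 in controls and -0.016, -0.054 and -0.077 in clamp null larvae, so a number was taken as shared by name only, and the block gave 6 members between control sexes. The causes of these moves were not tested. Without read counts, values listed at 0 or at a few TPM carry an unknown counting error.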
